A study of Mus musculus with 12 samples.

Results

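Adult villus enterocytes and E12.5 gut epithelium are the ends of a course of 4 mouse small-intestinal populations, and they are compared here across all genes. The 6 libraries of the 2 ends were taken by their titles from 12 libraries in all. E12.5 (3 libraries) is embryonic epithelium, with RNA from a pool of 20 embryos per library. AE (3 libraries) is adult epithelium that the labels call enterocytes, with RNA from 1 gut per library of males at postnatal day 60 that carried the Lgr5EGFP-Cre-ERT allele, a reporter in a stem-cell receptor gene. All groups share a mixed C57BL/6 CD1 strain. The sources used here give neither the sex of the pooled embryos nor whether they carried the allele. In both groups the sort kept cells with EpCAM, a surface protein of epithelium, removed those with CD31 (endothelium) or CD45 (white blood cells), and left out dead cells that took up the dye DAPI. Between the ends lie E14.5 epithelium and adult Lgr5+ stem cells of the crypt (ISC). For the 6 embryonic libraries title and age label disagree, each naming the opposite stage. The titles were followed, so whether the embryonic end is the earlier stage rests on them.

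At E12.5 the mouse gut epithelium is a proliferating tube of progenitors without villi, which signals to the mesenchyme around it through Hedgehog ligands. In the adult, crypt stem cells feed a sheet that differentiates as it moves up the villus. Enterocytes, the main cells of that sheet, digest peptides and sugars at a brush border of microvilli, take up nutrients and pack fat into chylomicrons. Goblet, Paneth, enteroendocrine and tuft cells are the other differentiated epithelial cells. A sort on EpCAM keeps all of them.

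Gene counts summed to 28115882, 19655654 and 24660139 in E12.5 replicates 1 to 3 and to 34157368, 17452260 and 12587626 in AE. Levels are TMM-normalised counts per 1000000 (CPM) and are not corrected for transcript length, so they compare 1 gene between groups and not 2 genes. The 10 genes with most reads took 5.77% ± 0.622 (SD, n = 3) of counts in E12.5 and 11.1% ± 1.76 in AE. Reads outside annotated genes made up 52.7% ± 5.99 of all reads listed in E12.5 and 36.03% ± 2.80 in AE. The reads listed include those aligned to several places, present in E12.5 and not in AE. AE replicate 1 stood apart from AE replicates 2 and 3. Its chi-square per degree of freedom over genes was 137.5 and 124.8 against them, where they had 26.6 between them and the E12.5 pairs had 12.52 to 17.04. This measure on raw counts grows with depth, and AE replicate 1 was the deepest library. Pearson correlations of log CPM differed less, at 0.984 and 0.985 against them and 0.990 between them. The E12.5 pairs had 0.994 to 0.996. In AE replicate 1 the summed level of 26 brush border hydrolase genes was 38168 CPM, against 77829.6 and 72799 CPM. Its summed level of 38 proliferation genes was 3333 CPM, against 1762 and 1987 CPM.

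Epithelial markers were present at both ends. Epcam stood at 508, 429 and 512 CPM in E12.5 and at 1260.4, 2051 and 1496 CPM in AE. Cdh1, the epithelial cadherin, stood at 739.5 ± 53.3 and 1759.9 ± 59.6 CPM. The enterocyte markers Sis, Lct, Alpi, Fabp1, Fabp2, Apoa4 and Vil1 were all higher in every AE library than in every E12.5 library. Lct, encoding lactase, stood at 4.11, 5.11 and 4.40 CPM in E12.5 and at 1138, 3419 and 3604 CPM in AE. The adult libraries were not enterocyte RNA alone, since Muc2 of goblet cells stood at 7516, 9719 and 6658 CPM and Lyz1 of Paneth cells at 6243, 2577 and 2493 CPM. In such bulk samples, fewer cells of a type and less RNA per cell cannot be told apart.

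The ends of the course differed in most of the genes measured. Of 23366 genes listed, 15342 passed the filter on low counts, and 12593 of those (82.1%) were called different by edgeR's quasi-likelihood test at a Benjamini-Hochberg adjusted p under 0.05. AE was higher for 5896 (38.4%) and lower for 6697 (43.7%). Among the called genes 4258 rose and 4991 fell by at least 1 on the log2 scale. The median change over all tested genes was a log2 value of -0.15. The 3 AE and the 3 E12.5 libraries did not overlap for 82.5% of tested genes. These shares are the background for every count below, and a share near them is not a result about a list. With upper-quartile scaling in place of TMM the median change was -0.42 and the split 5146 higher to 7570 lower. No gene was called in opposite directions by the reported fit and any alternative.

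Reads aligned to several places were listed at 3.06% to 3.96% of reads in E12.5 and at 0 in each AE library. Their listing and the group cannot be told apart. They were listed at 5.05% to 5.96% in ISC and at 0 in each E14.5 library. In a fit of the 6024 tested genes that share no 50-base stretch with another gene, a choice made after seeing the data, 2312 were higher and 2722 lower. Of these calls 4897 had the same direction in the fit of all genes. P-values rest on the spread between 3 pools of embryos and between 3 adult guts, which the labels call biological triplicates. The spread was estimated over all 12 libraries, so that within E14.5 and ISC enters too. With the 6 libraries alone, 5771 genes were called higher and 6068 lower. Genes with over 20% of their 50-base stretches in other genes are uncertain where named: besides those given below, Shh has 23.6%, Onecut1 52.3%, Cdkn1c 24.9%, Npm1 24.3%, Phf1 28.3%, Ldhb 21.0%, Arg2 21.2%, Hoxd3 60.3%, Gm10639 49.4%, Oaz3 51.2% and Gm11128 68.0%.

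**Figure D1:**
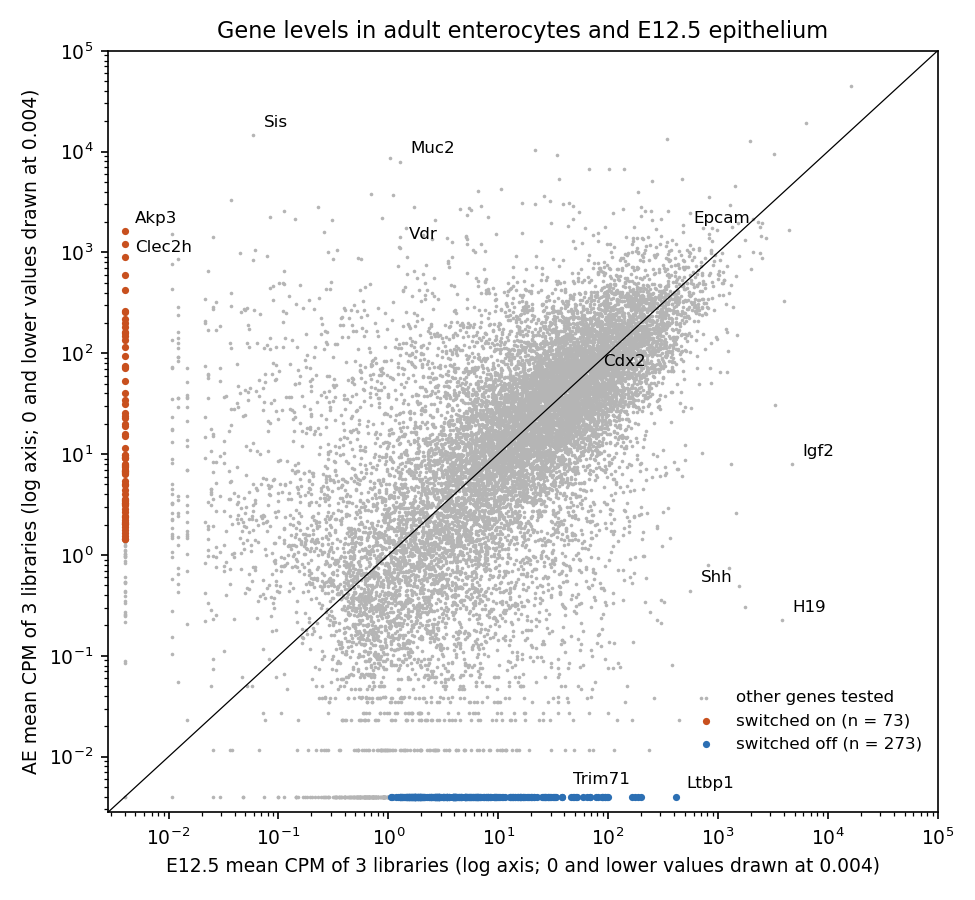
Mean level of each tested gene in E12.5 (x axis) and AE (y axis), in CPM on log axes, with the line of equal level. Orange points on the left edge are the 73 genes with 0 counts in all E12.5 libraries and at least 1 CPM in every AE library, and blue points on the lower edge are the 273 genes with the reverse pattern.

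A gene was taken as switched on when all 3 E12.5 libraries held 0 counts and every AE library held at least 1 CPM, and as switched off in the reverse case. These values chose the genes, so their levels are a description and their calls are no test. There were 73 genes switched on and 273 switched off. At 5 CPM in every library the numbers were 38 and 108. Allowing up to 3 counts over the silent group gave 203 and 526. Libraries thinned to the smallest total, 12587626 counts, gave 116 and 341, of which 70 and 262 were in the first sets. Without E12.5 replicate 1 the number switched on was 117, and without AE replicate 1 the number switched off was 422. Leaving out a library can only widen the sets, since the rule asks for every library. A count of 0 is not absence: 3 counts over the group, the limit that 0 counts allow, equal 0.0371 CPM in E12.5 and 0.0605 CPM in AE. Every fold below against a group at 0 is a lower bound against that floor, which covers counting error only. Just inside the minimum lay Gm10639, with 1.02 CPM in its lowest AE library, and Oaz3, with 1.02 CPM in its lowest E12.5 library. Just outside lay Gm11128 at 0.981 and 2810011L19Rik at 0.994 CPM. A further 130 and 253 genes missed the rule by 1 to 3 counts, among them Zg16, Xdh, Igf2bp1 and Sox11.

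The genes switched on were led by digestive and detoxifying enzymes. Akp3, an intestinal alkaline phosphatase gene of the brush border, stood at 802, 2066 and 1974 CPM in AE, at least 43556-fold higher than in E12.5. Clec2h, encoding a C-type lectin-like surface protein, stood at 616, 1818 and 1241 CPM, at least 33059-fold higher. Ces2e, one of 4 carboxylesterase genes in the set, stood at 658, 1091 and 967 CPM, at least 24434-fold higher. AE replicate 1 was lowest for all 3. The other carboxylesterase genes were Ces2a at 261 ± 144 CPM, Ces1f at 258 ± 106 and Ces2c at 200.1 ± 84.2, where 36.1% of the 50-base stretches of Ces2c also occur in other genes. Cyp3a11 and Cyp2b10, cytochrome P450 genes of drug and steroid oxidation, stood at 602 ± 376 and 428 ± 317 CPM. Hsd17b6, a hydroxysteroid dehydrogenase gene, stood at 181 ± 58.9 CPM.

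Immune and amino acid genes followed. Btnl6, a butyrophilin-like gene of gut epithelium, stood at 161, 247 and 248 CPM in AE. Ctss encodes cathepsin S, which trims the invariant chain of MHC class II, and stood at 115, 203 and 167 CPM. Ido1, encoding an enzyme that breaks down tryptophan, stood at 149, 175 and 157 CPM and varied least between the 3 guts of the 12 leading genes. Reg3a, a secreted antimicrobial lectin gene, stood at 149.8 ± 54.3 CPM and G6pc, the last enzyme of glucose release, at 136 ± 52.7 CPM. Tmprss15, which encodes the enteropeptidase that activates trypsinogen, stood at 20.8, 99.6 and 105 CPM, with AE replicate 1 again lowest.

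The genes switched off were led by matrix, adhesion and progenitor genes. Ltbp1, which encodes a matrix protein that stores latent TGF-beta, stood at 408, 421 and 429 CPM in E12.5 and was at least 6927-fold lower in AE. Lama1, a laminin chain gene of embryonic basement membrane, stood at 194, 207 and 202 CPM. Fscn1, encoding the actin-bundling protein fascin, stood at 216, 162 and 180.3 CPM. Trim71, a target of the let-7 microRNA in early progenitors, stood at 169, 169.9 and 194 CPM. Gpc3, a cell-surface heparan sulfate proteoglycan gene, stood at 173, 174 and 147 CPM. No AE library held a read of any of these genes. Gpc3 lies on the X chromosome, and the sex make-up of the groups differs: Xist, the RNA of the inactive X, stood at 775, 1819 and 1179.9 CPM in E12.5 and at 0.841, 0.245 and 1.14 CPM in the male AE libraries. The Y-linked gene Ddx3y stood at 36.7, 33.8 and 36.9 CPM in E12.5 and at 87.7, 75.0 and 62.3 CPM in AE, so the embryo pools held RNA of both sexes. Sex and group cannot be told apart.

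Cell-contact and channel genes made up much of the rest of the 12 leading genes. Cdh3, encoding P-cadherin, stood at 89.2 ± 5.23 CPM in E12.5, Ctnnd2, a delta-catenin gene, at 93.0 ± 0.841, and the synaptic adhesion gene Slitrk4 at 94.0 ± 3.80. Kcnq3, a voltage-gated potassium channel gene, stood at 88.1 ± 1.97 CPM and Sept3, a septin gene, at 87.8 ± 5.67. Prrg3, a membrane protein gene, stood at 101 ± 5.58 CPM. The zinc finger gene Zfp521 stood at 98.1 ± 3.62 CPM. By symbol family, the 273 held 5 of 95 potassium channel, 3 of 45 collagen and 3 of 39 Hox genes. They held 3 of 29 semaphorin and plexin genes. Also among them were 4 of 369 solute carrier, 4 of 360 Zfp, 25 of 1958 RIKEN-named and 3 of 613 microRNA genes. Over all 23366 genes listed 273 were switched off, and these last shares lie near or below that. Among the 73 switched on of 23366 were 6 of 101 cytochrome P450, 4 of 19 carboxylesterase and 3 of 37 chemokine genes. The Paneth cell list of 19 genes held 6 switched-on genes, all of them alpha-defensin genes. The imprinted list of 29 genes held 6 switched-off genes.

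Promoters of 3 leading genes of each kind are printed so that the letters before their start sites can be compared. Each is the 250 bases upstream of the gene's start in RefSeq on the build GRCm38.p6, 5′ to 3′ on the gene's strand, with each CG dinucleotide in capitals.
Akp3, chr1:87124704-87124953, plus strand: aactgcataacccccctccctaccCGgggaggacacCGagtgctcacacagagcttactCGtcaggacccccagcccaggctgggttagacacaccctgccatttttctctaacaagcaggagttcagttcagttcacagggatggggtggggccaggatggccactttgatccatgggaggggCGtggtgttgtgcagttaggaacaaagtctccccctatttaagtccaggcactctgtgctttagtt
Clec2h, chr6:128662135-128662384, plus strand: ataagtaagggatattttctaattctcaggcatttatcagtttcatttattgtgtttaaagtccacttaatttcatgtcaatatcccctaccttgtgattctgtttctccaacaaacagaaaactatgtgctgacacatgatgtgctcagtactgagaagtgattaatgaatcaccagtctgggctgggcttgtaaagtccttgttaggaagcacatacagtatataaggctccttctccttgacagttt
Ces2e, chr8:104926010-104926259, plus strand: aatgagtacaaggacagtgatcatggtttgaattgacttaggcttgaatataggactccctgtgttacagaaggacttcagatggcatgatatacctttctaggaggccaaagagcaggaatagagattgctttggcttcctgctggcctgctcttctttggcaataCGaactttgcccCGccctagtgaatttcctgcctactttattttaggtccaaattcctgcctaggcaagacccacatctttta
Fscn1, chr5:142960105-142960354, plus strand: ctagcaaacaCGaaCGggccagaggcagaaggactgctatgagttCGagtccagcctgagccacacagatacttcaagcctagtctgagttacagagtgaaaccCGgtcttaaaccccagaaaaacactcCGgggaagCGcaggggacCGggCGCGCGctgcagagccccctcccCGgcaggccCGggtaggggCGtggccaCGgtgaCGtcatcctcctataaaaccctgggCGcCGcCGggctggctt
Trim71, chr9:114564370-114564619, minus strand: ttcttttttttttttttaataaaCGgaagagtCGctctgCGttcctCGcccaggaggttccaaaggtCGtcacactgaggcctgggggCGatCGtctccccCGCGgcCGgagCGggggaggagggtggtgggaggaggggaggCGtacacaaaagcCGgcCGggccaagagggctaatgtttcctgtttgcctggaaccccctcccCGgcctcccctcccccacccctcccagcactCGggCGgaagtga
Gpc3, chrX:52613975-52614224, minus strand: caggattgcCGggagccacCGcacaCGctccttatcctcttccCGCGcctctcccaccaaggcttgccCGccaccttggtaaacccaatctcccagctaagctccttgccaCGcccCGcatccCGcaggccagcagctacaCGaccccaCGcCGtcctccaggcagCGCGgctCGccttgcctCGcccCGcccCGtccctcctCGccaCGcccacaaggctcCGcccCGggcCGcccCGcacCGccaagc

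The 3 switched-on promoters held 4, 0 and 2 CG dinucleotides, and the 3 switched-off promoters held 18, 17 and 25. These are 6 chosen promoters, and leading genes without a single listed promoter were passed over. RefSeq promoters matched 54 of the 73 and 200 of the 273 switched genes, under 80% of each set, so a check of composition over the sets is void. As a description of the matched genes only, the median was 2 CG for those switched on and 10 for those switched off. Over all tested genes with a promoter it was 15. The 3 switched-off promoters printed thus held more CG than the median of their set. A search of both strands covered 6 motifs. The letters TATAAA stand for the promoter element bound by the general transcription machinery. The letters AGATAA are known from zinc finger factors of the GATA kind. The longer element CAAAGTCCA belongs to nuclear receptors of the HNF4 kind, and its core CAAAGT lies within it and was also counted alone. The letters GTTAAT belong to factors of the HNF1 kind. The letters TTTATG belong to homeobox factors of the CDX kind. Matches of 2 of them were found in the printed promoters. CAAAGT began 44 bases before the start of Akp3, and TATAAA began 31 bases before that of Fscn1, both on the printed strand. Matches of CAAAGT on the other strand, printed as its reverse complement, began 86 bases before Akp3 and 80 before Ces2e. Over all 27025 promoters of this length, 12.53% held the HNF4 core and 12.97% the element found before Fscn1. The longer HNF4 element was held by 0.381%, the zinc finger element by 10.25%, the HNF1 element by 6.52% and the CDX element by 11.08%. These include genes not tested here. Among tested genes with a promoter, 10.97% held the HNF4 core and 7.30% the element found before Fscn1. For the longer HNF4, zinc finger, HNF1 and CDX elements these shares were 0.418%, 6.33%, 4.31% and 6.44%. A match of letters is not a bound site.

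The 2 groups between the ends, which the switch rule did not use, placed the switched genes along the course. Of the 73 switched on, 1 had at least 1 CPM in every E14.5 library and 35 in every ISC library, and 27 and 4 were at 0 in all 3. Of the 273 switched off, 137 still had at least 1 CPM in every E14.5 library and 1 was at 0 in all 3. None of the 273 had at least 1 CPM in every ISC library, and 144 were at 0 in all of them. Clec2h stood at 0, 2.14, 25.1 and 1225 mean CPM in E12.5, E14.5, ISC and AE. Ido1 stood at 0, 0, 0.109 and 160.2. For that gene the stem-cell and enterocyte libraries did not overlap. Gpc3 stood at 165, 137, 0.186 and 0 mean CPM and Kcnq3 at 88.1, 2.10, 0.0422 and 0. The median switched-on gene stood at 0, 0.0146, 1.76 and 7.99 CPM along the course, and the median switched-off gene at 4.32, 1.22, 0 and 0. With a minimum of 5 CPM in these 2 groups, 0 of the 73 switched on reached it in E14.5 and 16 in ISC. Of the 273 switched off, 49 reached it in E14.5 and 0 in ISC.

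**Figure D2:**
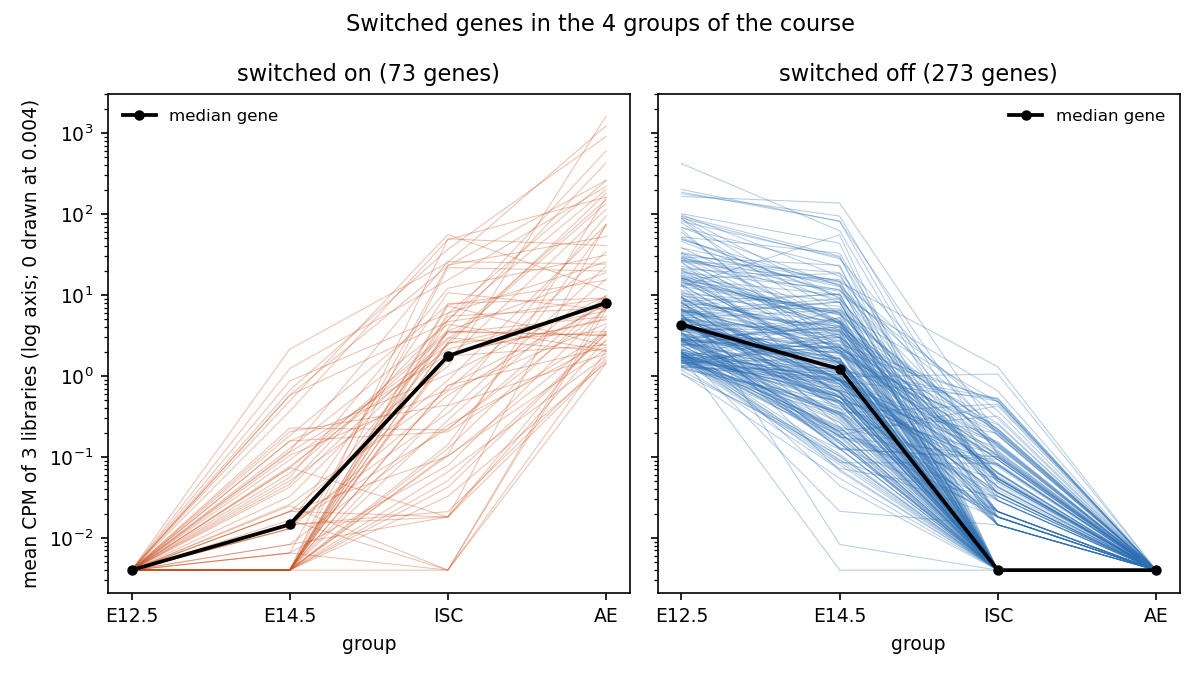
Mean CPM of 3 libraries (log axis, 0 drawn at 0.004) of each switched gene in E12.5, E14.5, ISC and AE, 1 thin line per gene, with the median gene in black. The first and last points were set by the rule. The median switched-off gene goes from 4.32 to 1.22 CPM between E12.5 and E14.5 and to 0 in ISC, and the depth of the last step on the log axis depends on where 0 is drawn.

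Genes of digestion rose almost as one list. All 25 tested brush border hydrolase genes were called higher in AE, against 38.4% of all genes, with a median log2 change of 8.12. Sis, which encodes sucrase-isomaltase, rose from 0.0962, 0.0444 and 0.0367 CPM in E12.5 to 11002, 15989 and 16625 CPM in AE. Its log2 change was 17.74 ± 0.57 (SE), with an adjusted p of 2.95e-12 by edgeR. Sis alone took 0.919%, 1.12% and 1.16% of the counts of the AE libraries. Anpep, encoding aminopeptidase N, was already at 415, 303 and 318 CPM in E12.5 and rose 38.5-fold to 8469.5, 17608 and 13797 CPM. Enpp7, the alkaline sphingomyelinase gene, stood at 3 counts over E12.5 and at 384, 1280.1 and 1275 CPM in AE. All 23 microvillus genes were higher, at a median of 3.84. Vil1, encoding the actin bundler villin, rose 20.5-fold from 251 ± 29.3 to 5149 ± 1072 CPM. Myo1a, the membrane motor of the microvillus, rose 436-fold from 9.17, 3.11 and 3.48 to 1879.8, 2925 and 2176 CPM, and Cdhr2, a tip-link cadherin gene, 159-fold.

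Nutrient transporters and fat handling rose with few exceptions. Of 32 nutrient transporter genes 31 were higher, at a list median of 6.14. Slc6a19, the neutral amino acid transporter gene, rose from 0, 0.222 and 0.110 CPM to 232, 657 and 621 CPM. Slc26a3, a chloride and bicarbonate exchanger gene, rose 1887-fold to 301, 322 and 308 CPM, with little spread between guts. The exception, Slc43a1, a transporter of large neutral amino acids, fell 51.6-fold from 53.98 ± 3.37 to 0.907 ± 0.455 CPM. Of 35 lipid absorption genes 33 were higher and 2 lower, at a median of 6.41. Apoa4, a chylomicron apolipoprotein gene, rose 3306-fold from 1.11 ± 0.0112 to 1132, 4680.3 and 5259 CPM, although 60.9% of its 50-base stretches occur in transcripts of other genes. Rbp2, the intestinal retinol-binding protein gene, rose 787-fold. Fabp2, a fatty-acid-binding protein gene, rose 267-fold to 3548, 10305 and 13724 CPM. Apob, the structural protein of chylomicrons, was high at both ends and rose 6.40-fold from 1980.4 ± 107 to 12672 ± 7192 CPM. The 2 exceptions were Scarb1, a lipoprotein receptor gene, which fell 1.78-fold, and Isx, a homeobox gene that limits retinoid uptake, which fell 1.28-fold.

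Mineral handling was less uniform, with 15 of 19 genes higher and 2 lower. Vdr, the vitamin D receptor gene, rose 904-fold from 1.12, 1.29 and 1.32 to 876, 1204 and 1293 CPM, and S100g, its calcium-binding target calbindin D9k, rose 15.2-fold to 91.4 ± 15.6 CPM. Slc39a4, a zinc importer gene, rose 61.0-fold and Fth1, the ferritin heavy chain gene, 19.7-fold. Trpv6, the apical calcium channel gene, fell 8.85-fold from 3.07 ± 0.115 to 0.475 ± 0.496 CPM, and Tfrc, the transferrin receptor gene, fell 1.49-fold from 726 ± 6.24 to 485 ± 132 CPM.

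Every one of 37 tested xenobiotic metabolism genes was called higher, at a median of 7.40. They included Cyp3a11, Cyp2b10, Ces2e and Ces2a, whose E12.5 libraries held no read. Over the symbol families, 34 of 49 tested cytochrome P450 genes rose and 11 fell, and the family's summed level went from 321 ± 14.51 to 9161 ± 3800.0 CPM. All 14 tested carboxylesterase genes rose, from a summed 3.13 ± 0.788 to 2038 ± 476 CPM. Of 20 glutathione S-transferase genes 19 rose. Xdh, xanthine dehydrogenase of purine breakdown, had 1 count over E12.5 and 760.2, 1687 and 2158 CPM in AE.

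Mitochondrial, fatty acid and gluconeogenic genes rose. All 38 oxidative phosphorylation genes were higher, at a median of 2.25. Sdhb, a subunit of complex II, rose 10.1-fold from 19.7, 17.2 and 18.5 to 160.4, 219 and 178 CPM. Uqcrq of complex III rose 11.98-fold, and Atp5b of the ATP synthase 2.94-fold from 3217 ± 155 to 9459.7 ± 1432 CPM. These genes have short transcripts, and change moved with transcript length. The median log2 change was 0.26 in the shortest of 5 equal classes of tested genes and -0.53 in the longest. Less the median of its length class, the list stood at 2.10. Of 30 fatty acid oxidation genes 27 rose and 1 fell. Ehhadh, a peroxisomal beta-oxidation enzyme gene, rose 65.5-fold to 262 ± 62.8 CPM, and the exception, Acot1, an acyl-CoA thioesterase gene, fell 7.87-fold. Of 15 gluconeogenesis and fructose genes 13 rose, among them Khk, the ketohexokinase gene, which rose 214-fold to 563 ± 167 CPM, and Pck1, 331-fold to 280.2 ± 149 CPM.

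Glycolysis genes split, 10 higher and 9 lower of 22, close to the background in both directions. Pfkp, a phosphofructokinase gene, rose 49.5-fold from 9.01 ± 1.196 to 445 ± 41.4 CPM. Slc2a3, a high-affinity glucose transporter gene, went from 222, 228 and 261 CPM to 1 count over the 3 AE libraries. Ldhb, a lactate dehydrogenase gene, fell 148-fold from 46.4 ± 4.99 to 0.369 ± 0.184 CPM. Of 23 cholesterol synthesis genes 9 were lower and 3 higher, with 11 not called. The share lower was not above the 43.7% of all genes, so it is not a result about the list. Sqle, squalene epoxidase, fell 2.23-fold to 123, 97.2 and 67.6 CPM. Without AE replicate 1 the number lower was 12. Of 26 amino acid genes 14 rose and 9 fell. Otc, of the urea cycle, rose 173-fold from 2.16 ± 0.287 to 377 ± 17.0 CPM, and Arg2, the mitochondrial arginase gene, 309-fold to 415 ± 90.8 CPM.

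**Figure D3:**
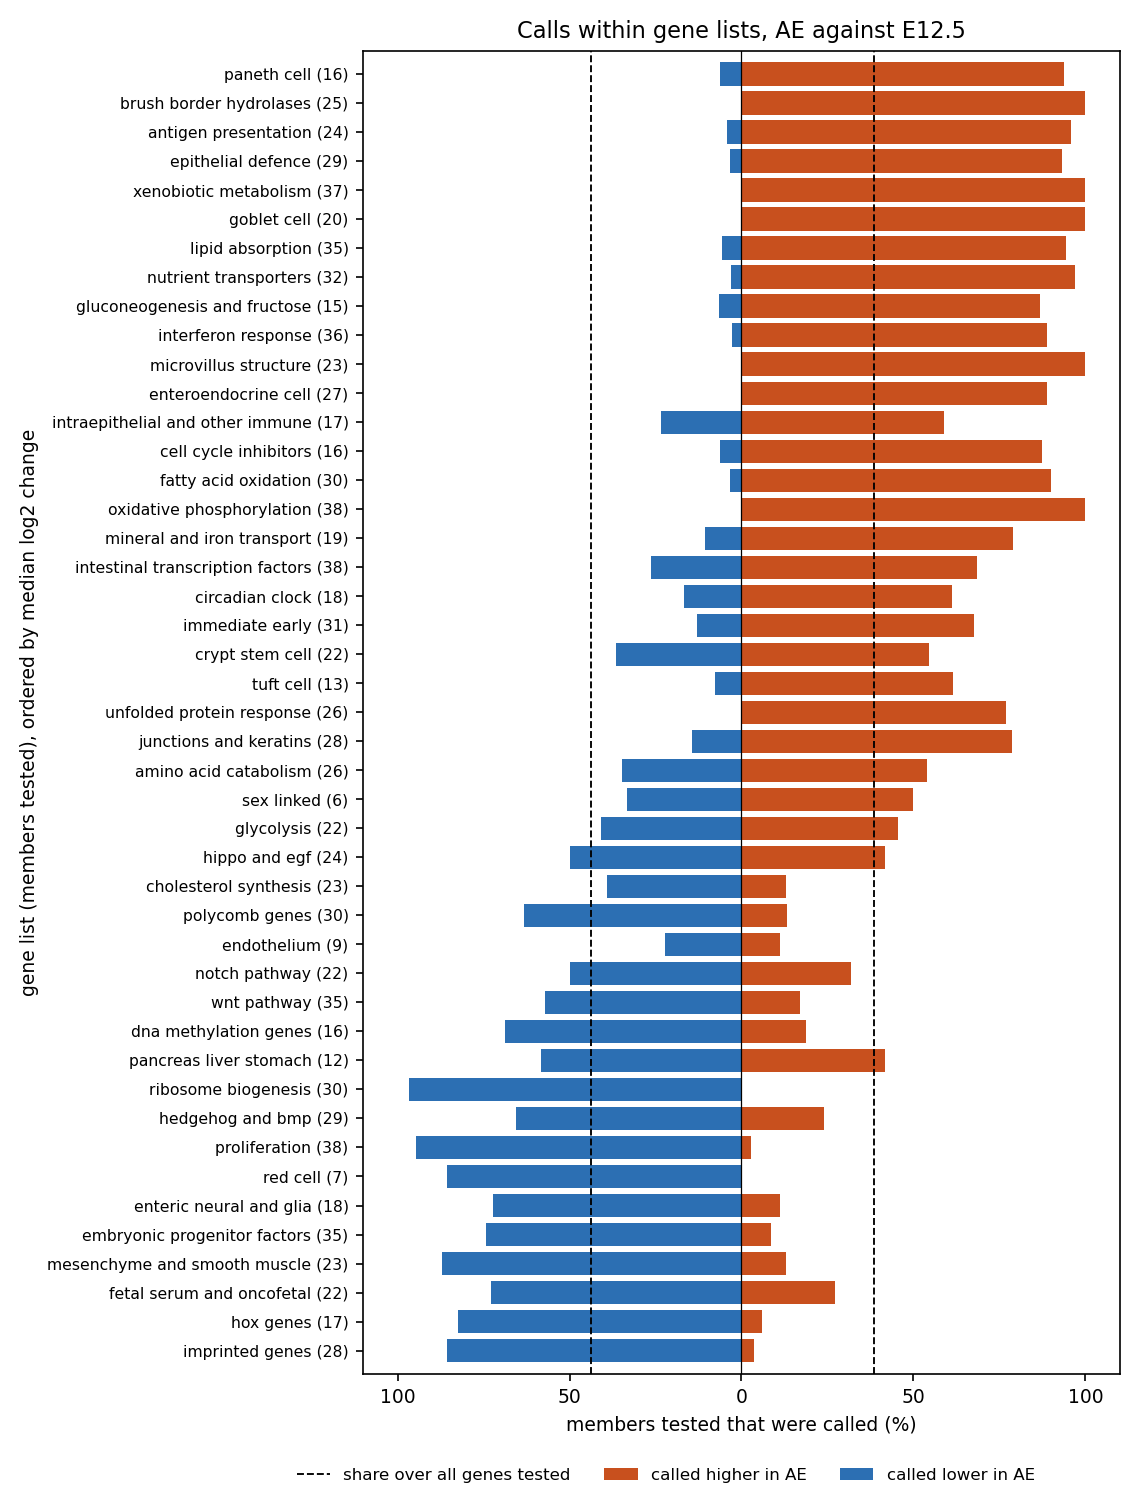
Percent of the tested members of each gene list called higher (orange, to the right) or lower (blue, to the left) in AE, ordered by the list's median log2 change. Dashed lines mark the shares over all tested genes, 38.4% higher and 43.7% lower, and all members were called higher in the hydrolase, microvillus, xenobiotic, goblet cell and oxidative phosphorylation lists.

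Defence and antigen presentation genes rose with few exceptions. Of 29 epithelial defence genes 27 rose and 1 fell, with a median of 7.70. Pigr, which carries IgA across the epithelium, rose from 0.930, 0.622 and 1.58 to 7495, 9403 and 9295 CPM, a log2 change of 13.01 ± 0.36. Reg3b and Reg3g, antimicrobial lectin genes, had 2 and 1 counts over E12.5. In AE they stood at 747, 2804 and 702 CPM and at 706, 1263 and 320.0 CPM. The 3 guts differed widely for both. The exception was Tlr5, the flagellin receptor gene, which fell 106-fold from 93.8 ± 5.62 to 0.777 ± 0.342 CPM. Of 24 antigen presentation genes 23 rose and 1 fell. Cd74, the invariant chain of MHC class II, rose 2536-fold from 0.545, 0.888 and 1.21 to 1236, 2391 and 3032 CPM, and H2-Aa, a class II chain gene, from 7 counts over E12.5 to 923 ± 466 CPM. Cd1d1, which presents lipids, fell 8.25-fold. Over the H2 symbol family 21 of 23 genes rose. Of 36 interferon response genes 32 rose and 1 fell. Ifi27l2b rose 1588-fold to 186, 414 and 418 CPM, and the exception Ifit2 fell 19.7-fold from 91.6 ± 7.45 to 4.74 ± 0.747 CPM.

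Most white blood cell markers that were called moved with these lists, and some went the other way. Ptprc, the CD45 gene, stood at 0.0321, 0 and 0.0367 CPM in E12.5 and at 1.44, 2.53 and 1.48 CPM in AE, and Cd3e of T cells at 0.0107 ± 0.0185 and 2.28 ± 1.24 CPM. Gzma, a granzyme gene, stood at 5.04 ± 2.68 CPM in AE. Of 17 tested immune markers 10 were higher and 4 lower, and the summed level of the list ranged from 29.7 to 35.0 CPM in E12.5 and from 58.1 to 80.3 CPM in AE. The number lower was 2 without AE replicate 2, and 1 without AE replicate 3, without E12.5 replicate 1 or without E12.5 replicate 2. Goblet and Paneth cell genes, given below, also moved with the defence list. The part of immune and secretory cells in these results was not tested.

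Intestinal transcription factor genes rose for 26 of 38 and fell for 10, at a median of 1.71. Hnf4a, a nuclear receptor gene of digestive epithelium, rose 7.16-fold from 325, 264 and 314 to 2377, 2073 and 2019 CPM. Creb3l3, a membrane-bound factor of lipid metabolism, rose 219-fold to 254, 429 and 576 CPM. Maf, a basic leucine zipper factor gene, rose 177-fold from 1.45 ± 0.0637 to 257 ± 101 CPM. Cdx2, the homeobox gene of intestinal identity, stood at 80.3, 62.2 and 76.7 CPM in E12.5 and at 61.0, 56.4 and 69.4 CPM in AE. The groups overlapped, and its log2 change of -0.23 had a 95% interval of -0.54 to 0.08 (adjusted p = 0.149, edgeR). With upper-quartile scaling it was called lower, at -0.50 (adjusted p = 0.00476, edgeR). Its relative Cdx1 rose 76.5-fold from 0.865 ± 0.114 to 66.5 ± 14.9 CPM, and was chosen for this comparison after its values were seen.

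Embryonic progenitor factors fell for 26 of 35 genes, against 43.7% of all genes, at a median of -3.45, and 3 rose. Sox11, an embryonic SOX factor gene, stood at 421, 457 and 445 CPM in E12.5 and at 2 counts over AE. Igf2bp1, encoding an oncofetal mRNA-binding protein, stood at 687, 665 and 736 CPM and at 1 count. Lin28b, which blocks let-7 maturation, stood at 26.7, 38.4 and 36.01 CPM and was at 0 in AE, at least 557-fold lower. The exceptions were Id1, Id3 and Id4, targets of BMP signalling. Of the factor genes among the switched genes, Onecut1 stood at 18.2 ± 1.15 CPM in E12.5 and Sall1 at 1.75 ± 0.764. Hoxc4 and Hoxd3 stood at 1.57 ± 0.314 and 5.11 ± 1.03 CPM. Of 17 tested Hox genes 14 fell and 1 rose, and the summed level of the list ranged from 61.2 to 66.3 CPM in E12.5 and from 3.996 to 9.15 CPM in AE. The exception was the posterior gene Hoxb9, at 0.209 ± 0.0421 and at 1.12, 2.69 and 0.228 CPM. With the 6 libraries fitted alone none of the 15 Hox genes tested was called higher.

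Imprinted genes, expressed from 1 parental copy and many of them regulators of fetal growth, fell for 24 of 28, at a list median of -6.80. Igf2, the fetal growth factor gene, fell 616-fold from 5057, 4510.4 and 4581 to 4.52, 8.90 and 10.6 CPM, and 62.1% of its 50-base stretches also lie in transcripts of other genes. Its neighbour H19, a noncoding RNA gene, stood at 4454, 2725 and 4282 CPM in E12.5 and at 9 counts over AE, a log2 change of -14.29 ± 0.41. Grb10, an adaptor that restrains growth, fell 4059-fold from 1755, 1584 and 1918 CPM, and Peg3 107-fold from 3301 ± 414 to 30.96 ± 6.82 CPM. Peg10 and Ndn were among the switched-off genes. The 1 imprinted gene that rose was Ascl2, a crypt stem-cell factor gene, from 2.33 ± 0.840 to 8.04 ± 2.37 CPM. Together the list held 17288 to 19830.1 CPM in E12.5 and 1116 to 1338 CPM in AE.

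Oncofetal and fetal epithelial genes fell for 16 of 22 and rose for 6. Cldn6, an embryonic tight junction gene, fell 1145-fold from 901, 721 and 838 to 0.420, 1.39 and 0.571 CPM. Gja1, encoding connexin 43, fell 357-fold, and Fat3, an atypical cadherin gene, stood at 64.2 ± 11.2 CPM in E12.5 and 0 in AE. Afp, the fetal serum protein gene, went the other way, from 66.5, 56.2 and 55.8 to 108, 81.4 and 123 CPM, a 1.75-fold rise (adjusted p = 1.98e-04, edgeR). In ISC it stood at 0.198 CPM, far below both ends.

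Chromatin genes fell more often than they rose. Of 30 Polycomb genes 19 fell and 4 rose, at a median of -0.54, or -0.22 less the median of each gene's transcript length class. Cbx2, a PRC1 subunit that reads H3K27 methylation, fell 11.7-fold from 163, 161 and 148 to 14.4, 9.72 and 16.2 CPM, Phc1 8.78-fold and Bmi1 4.29-fold. Phf1, a PRC2 partner, rose 5.55-fold. Of 16 DNA methylation genes 11 fell and 3 rose. Tet1, a 5-methylcytosine oxidase gene, fell 42.3-fold from 252, 258 and 245 to 5.96, 6.12 and 5.71 CPM. Dnmt3b, a de novo methyltransferase gene, fell 6.81-fold to 8.34, 3.67 and 3.77 CPM. Apobec1, which edits apolipoprotein B mRNA in the gut, rose 448-fold from 0.270 ± 0.155 to 129 ± 21.4 CPM.

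Signalling lists held members that moved in both directions. Of 29 Hedgehog and BMP genes 19 fell and 7 rose. Shh, the Hedgehog ligand of gut epithelium, fell 1357-fold from 581, 555 and 555 to 0.280, 0.817 and 0.228 CPM. Gli3, a transcription factor of the pathway, stood at 69.3 ± 3.18 CPM in E12.5 and at 3 counts over AE, and Bmpr1b, a BMP receptor gene, was switched off. Bmp3 rose 111-fold to 79.3 ± 6.15 CPM. Of 35 Wnt pathway genes 20 fell and 6 rose. Fzd3 and Fzd10 encode Wnt receptors. Fzd3 fell 149-fold from 257, 299 and 274 to 1.82, 2.20 and 1.48 CPM, and Fzd10 went from 14.6 ± 2.44 CPM to 1 count. Tcf7l1, a repressor at Wnt targets, fell 162-fold, and Sfrp1, a secreted inhibitor, went from 20.5 ± 2.68 CPM to 3 counts. Axin2, a feedback target, rose 4.13-fold from 24.6, 24.7 and 29.4 to 106, 95.6 and 124.6 CPM.

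Of 22 Notch pathway genes 11 fell and 7 rose, near the 43.7% and 38.4% of all genes, so this is not a result about the list. The receptor gene Notch3 fell 77.5-fold from 113 ± 2.18 to 1.73 ± 1.00 CPM. The ligand genes Dll1 and Dll4 rose 16.5-fold and 11.01-fold, to 37.5 ± 10.4 and 12.2 ± 3.27 CPM. Of 24 Hippo and EGF genes 12 fell and 10 rose, near the background. Tead2, a DNA-binding partner of YAP, fell 83.3-fold and its target Ctgf 141-fold, whereas Areg and Ereg, EGF receptor ligands, rose. Areg stood at 4 counts over E12.5 and at 52.7, 16.5 and 55.8 CPM in AE, and Ereg rose 21.1-fold to 6.98 ± 2.16 CPM.

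Proliferation genes fell for 36 of 38, at a median of -1.95, without reaching 0. Mki67, the Ki-67 gene of cycling cells, fell 2.82-fold from 1302, 1326 and 1350.2 to 641, 344 and 427 CPM. Mcm2, of the replicative helicase, fell 6.05-fold to 51.0, 27.8 and 28.4 CPM, and Rrm2, of ribonucleotide reductase, 5.37-fold to 66.1, 31.1 and 26.5 CPM. AE replicate 1 was the highest of the AE libraries for all 3. The gene that rose was E2f2, 5.27-fold to 129, 53.9 and 76.3 CPM. Of 16 cell cycle inhibitor genes 14 rose. Cdkn2b, encoding p15, rose 88.1-fold to 62.3 ± 6.92 CPM, and Mxd1, a MYC antagonist, 63.7-fold to 298, 1335 and 1159 CPM. Cdkn1c, which is imprinted, fell 19.7-fold. All but 1 of 30 ribosome biogenesis genes fell and none rose. Polr1a, the large subunit of RNA polymerase I, fell 5.62-fold from 230.4 ± 2.61 to 40.6 ± 12.2 CPM, and Npm1, nucleophosmin, 7.35-fold to 164 ± 44.6 CPM.

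Crypt stem cell genes showed no single direction, with 12 higher and 8 lower of 22. Lgr5 itself stood at 30.9, 21.5 and 21.9 CPM in E12.5 and at 20.6, 26.9 and 22.5 CPM in AE. Its log2 change was -0.09 with a 95% interval of -0.41 to 0.22 (adjusted p = 0.568, edgeR). With upper-quartile scaling it was called lower, at -0.35 (adjusted p = 0.0317, edgeR). The AE mice carried the reporter allele in this same gene, and whether the embryos did is not given. For Lgr5, allele and group therefore cannot be told apart. Olfm4, a secreted glycoprotein gene of crypt bases, rose 402-fold to 641, 538 and 638 CPM, where ISC held 5741 CPM. Sox9 fell 6.09-fold from 219 ± 21.9 to 35.9 ± 1.49 CPM. Junction and keratin genes rose for 22 of 28. Krt20, a keratin of differentiated villus cells, rose 28.4-fold to 1742 ± 728 CPM and Cldn15, a pore-forming claudin gene, 116-fold, whereas the stomach-type claudin gene Cldn18 was switched off from 4.84, 10.3 and 2.79 CPM.

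**Figure D4:**
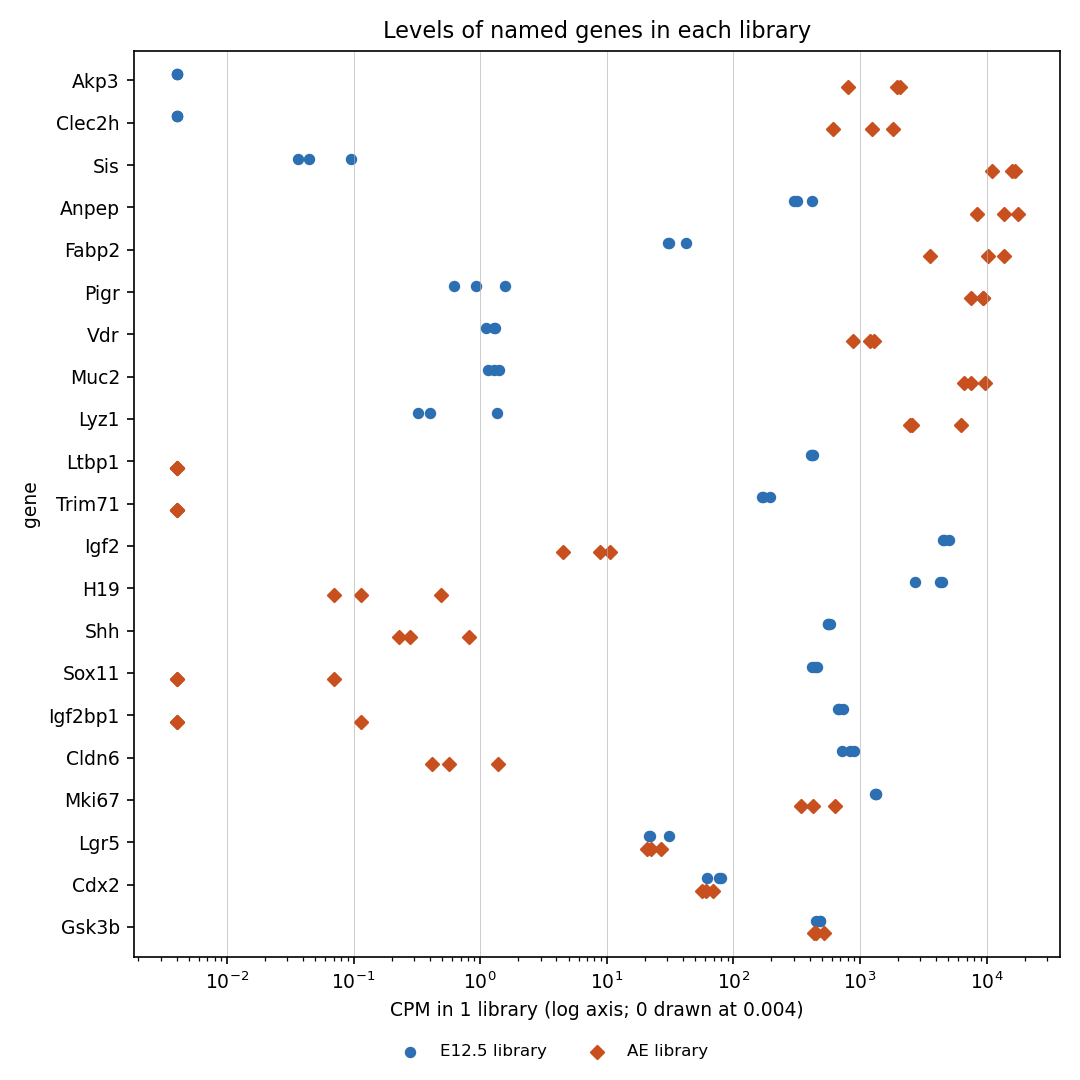
CPM of 21 named genes in each of the 6 libraries (log axis, 0 drawn at 0.004), blue circles for E12.5 and orange diamonds for AE. The groups overlap for Gsk3b, Cdx2 and Lgr5, and AE replicate 1 gives the lowest orange point for Akp3, Sis and Fabp2.

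Markers of the other epithelial cells rose together in AE. All 20 goblet cell genes were higher, and their summed level was 24024, 33539 and 19887 CPM in AE against 43.0 to 61.1 CPM in E12.5. Muc2, the mucin of goblet cells, rose 6208-fold from 1.29 ± 0.133 CPM. Fcgbp, a mucus protein gene, rose 477-fold to 10527, 13027 and 7213 CPM, and Zg16, a lectin of mucus, had 3 counts over E12.5 and 2408, 5133 and 2412 CPM in AE. Of 16 tested Paneth cell genes 15 rose, with a summed level of 7389.7 CPM in AE replicate 1 and 3125 and 3120.1 CPM in replicates 2 and 3. The near-identical alpha-defensin genes are uncertain, as 92.0% of the stretches of Defa17 occur in other genes. Of 27 enteroendocrine genes 24 rose and none fell. Chgb, a granule protein gene, rose 27.5-fold to 863, 791 and 940.0 CPM, and Gip, an incretin gene, 2607-fold to 157, 589 and 352 CPM. Of 13 tuft cell genes 8 rose, among them Trpm5, a taste-pathway channel gene, 22.9-fold to 11.2 ± 2.99 CPM. Cd24a, on that list, fell 3.19-fold from 777 ± 64.2 CPM.

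Mesenchymal, neural and red cell markers mostly fell, from levels at E12.5 that differed widely between genes. Of 23 mesenchyme and smooth muscle genes 20 fell and 3 rose, and their summed level was 1690.1 to 1923 CPM in E12.5 and 40.1 to 54.2 CPM in AE. Most of the E12.5 sum was Fn1, the fibronectin gene, at 1668, 1482 and 1552 CPM, and Vim, the vimentin gene, stood at 159.8 ± 24.2 CPM. The defining markers Col1a1, Col3a1, Pdgfra, Acta2 and Myh11 stood at 2.20 ± 1.09, 10.8 ± 0.234, 2.43 ± 1.18, 4.89 ± 1.36 and 3.33 ± 1.77 CPM in E12.5 and at or under 0.510 CPM in AE. Col5a1, a fibrillar collagen gene, stood at 32.9, 28.8 and 29.5 CPM in E12.5 and at 1 count over AE. Prrx1, a mesenchymal homeobox gene, rose from 0.140 ± 0.102 to 20.2, 23.6 and 34.4 CPM. Of 18 enteric neural genes 13 fell and 2 rose, and Snap25, which enteroendocrine cells also use, was one of the risers at 14.55 ± 5.43 CPM in AE. Of 9 tested endothelial genes 2 fell, 1 rose and 6 were not called, with 4 lower without AE replicate 1, and Pecam1, the CD31 gene, stood at 0.631 ± 0.357 and 0.587 ± 0.140 CPM. Of 7 tested red cell genes 6 fell, and Tfrc, which dividing epithelium also uses, made up 726 CPM of the list's 753 CPM in E12.5. Alas2, of heme synthesis in red cell precursors, fell 8.92-fold from 16.9, 28.5 and 25.1 to 1.96, 3.02 and 3.31 CPM. The globin genes Hbb-b1 and Hba-a1 were at 0 in all 6 libraries, and embryonic Hbb-y stood at 0.596 ± 0.239 CPM in E12.5. The part of mesenchymal cells in the genes that fell was not tested.

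**Figure D5:**
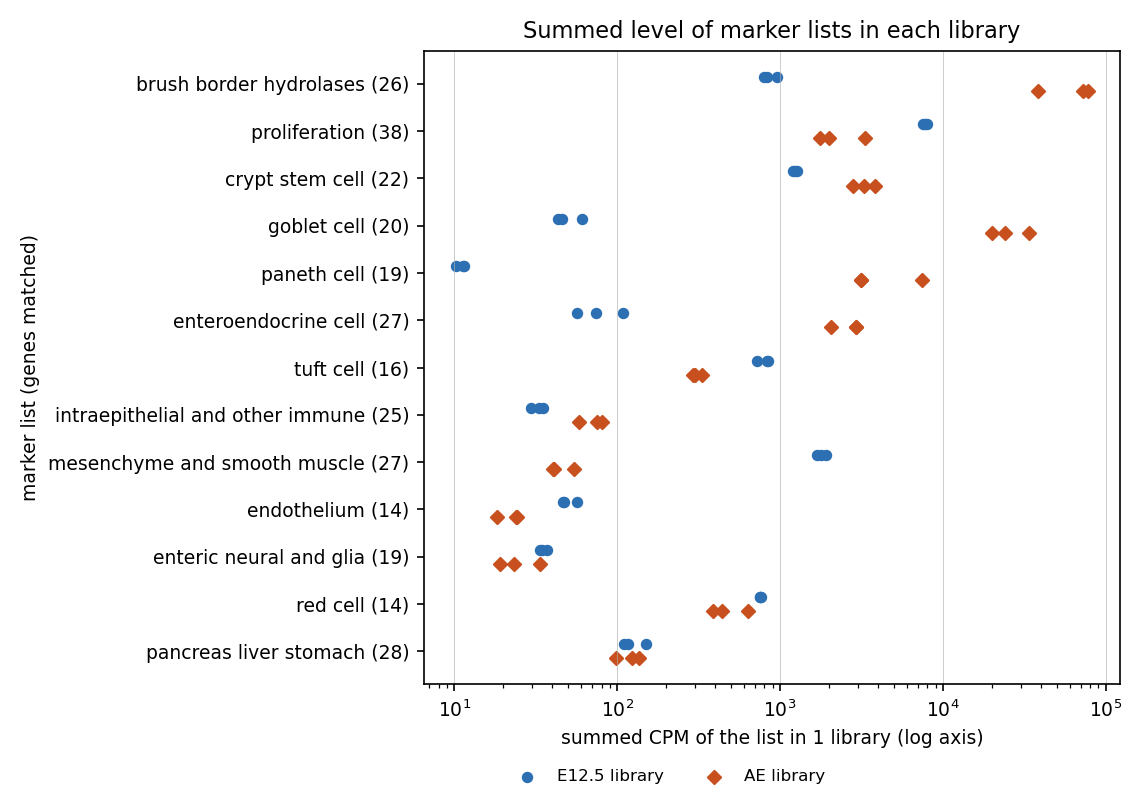
Summed CPM of each marker list in each of the 6 libraries (log axis), blue circles for E12.5 and orange diamonds for AE, with the number of genes matched. Goblet, Paneth and enteroendocrine sums lie far higher in AE, the mesenchyme sum lies far lower, and AE replicate 1 stands apart in the hydrolase, proliferation and Paneth sums.

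The stress, clock and secretory stress lists had no more members called than the 82.1% of all genes, and their called members were mostly higher. Of 31 immediate early and heat shock genes 21 rose and 4 fell. Fos rose 13.3-fold from 65.1, 35.2 and 40.2 to 858, 418 and 596 CPM. Hspa1a, an inducible chaperone gene, stood at 17.7, 163 and 1.14 CPM in AE, against 0.666 to 3.11 CPM in E12.5, so the groups overlap. Its log2 change was 5.10 with all libraries and 2.62 without AE replicate 2, and 66.3% of its stretches occur in other genes. Sample handling before the sort differed between embryonic and adult tissue, per the labels' protocols, so dissociation and stage cannot be told apart for these genes. Of 26 unfolded protein response genes 20 rose and none fell, with 2 lower without AE replicate 1 and 2 lower with upper-quartile scaling. Ern2, the IRE1 form of secretory epithelium, rose 117-fold from 0.565 ± 0.175 to 65.8 ± 12.4 CPM. Of 18 clock genes 11 rose and 3 fell. Nr1d1 rose 17.2-fold to 289.9, 483 and 505 CPM and Npas2 283-fold to 76.1, 70.3 and 131 CPM, and the sources used here give no time of day.

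Some genes expressed at both ends differed little. Of 5351 genes with at least 20 CPM in both groups, 2493 (46.6%) had a 95% interval of the log2 change within 1 either way. Of these 719 were still called higher and 767 lower, and 1007 were not called. Gsk3b, a kinase gene of Wnt and insulin signalling, stood at 479, 481 and 453 CPM in E12.5 and 450.2, 437 and 516 CPM in AE, with an interval of -0.22 to 0.20. Cxadr, a junction adhesion gene, stood at 296 ± 24.5 and 299 ± 17.8 CPM, with an interval of -0.20 to 0.23. Pcf11, of mRNA 3′ end formation, stood at 227 ± 15.7 and 226 ± 22.0 CPM, with an interval of -0.23 to 0.22. Gnb2l1, a ribosomal scaffold gene, had the wider interval of -0.49 to 0.51. Hnrnpul2 stood at 388 ± 44.7 and 388 ± 34.9 CPM and Ivns1abp at 485 ± 53.3 and 487 ± 92.6 CPM.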

How the data were processed

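RNA of 12 sorted epithelial samples, 3 per group, was sequenced. The deposited values are raw read counts per gene symbol. Tools named in the submitters' processing notes are STAR 2.3.1z13 and HTSeq 0.6.1p1, besides SAMtools 1.2, bcl2fastq 1.8.4 and DESeq2 1.6.3, with the build mm9. Their roles, the annotation and the strand setting are not stated there, which leaves antisense and overlapping genes uncertain. Summary lines that name no gene were left out of library sizes. They held 52.7% ± 5.99 (no feature) of reads in E12.5 and 36.03% ± 2.80 in AE.

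Genes were filtered with filterByExpr, scaled by TMM and tested with edgeR 4.0.16 (quasi-likelihood, R 4.3.3) on all 12 libraries, so that the 4 groups share 1 estimate of spread, at a Benjamini-Hochberg adjusted p under 0.05. Standard errors are the log2 change over the square root of F. Alternatives were RLE and upper-quartile scaling, no filter, DESeq2 1.42.0, limma-voom 3.58.1, the 6 libraries alone, a replicate block, each library left out, other switch rules, thinned libraries, unshared sequence and transcript length. The last 2, and thinning to the TMM-scaled size, were chosen after seeing the data. Promoters and chromosome places come from RefSeq on GRCm38.p6. Transcript lengths and shared stretches come from GENCODE mouse transcripts.

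The members and lists were chosen with earlier results of these data known. Named genes are the 12 highest switched genes each way, the 10 largest non-overlapping changes each way at 20 CPM or more, up to 4 of each list by largest change at 5 CPM or more, the 10 with most reads per group, the 6 most stable at 200 CPM or more, switched regulators, other-cell markers above 50 CPM, and Epcam, Cdh1, Krt8, Vil1, Cdx2, Hnf4a, Lgr5, Olfm4, Mki67, Xist, Ptprc and Pecam1. Members that went against their list's direction, the enterocyte and mesenchyme check genes, Cd3e, Cdx1 and globin genes were named after their values were seen. Some genes that the rule names are not reported here.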

Additional observations from a re-analysis of the deposited data

Results flagged for a closer look

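Reads listed as aligned to several places made up 3.545% of all reads listed on average over the 3 E12.5 libraries and 0 in all 3 AE libraries. This line of the files enters no gene count or test, but it is part of the total behind the share of reads outside annotated genes. It differs between the 2 ends in every library, so it cannot be told apart from the group. In the ISC libraries it held 5.05% to 5.96% and in each E14.5 library 0, so it did not follow embryo against adult.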

How the results depend on the processing

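The split of 5896 higher and 6697 lower genes stayed within 1.5 times under every alternative fitted to all genes. It was 5870 and 6739 with RLE, 5146 and 7570 with upper-quartile scaling, 5910 and 6771 with DESeq2, 5879 and 6717 with limma-voom, and 6155 and 7225 without a filter. Leaving out 1 library gave 5747 to 5985 higher and 6512 to 6851 lower. Replicate numbers did not pair the samples (correlations of deviations -0.103, -0.091 and -0.131). With the replicate block in the 6 libraries the counts were 5528 and 5843, against 5771 and 6068 without the block. Switched-on and switched-off counts moved from 73 and 273 to 38 and 108 at 5 CPM, 203 and 526 with up to 3 counts, 116 switched on in thinned libraries, 158 switched on when thinned to the smallest TMM-scaled size, and 23 and 144 among genes sharing no 50-base stretch, where fewer genes are tested. With 1 library left out they ranged from 77 to 117 and from 285 to 422, where the rule lets the counts only grow. With a minimum of 5 CPM in E14.5 and ISC, 0 of the 73 switched-on genes reached it in E14.5 and 16 in ISC. Of the 273 switched-off genes 49 did so in E14.5. Less the median of the transcript length class, the cholesterol synthesis median turned from -0.16 to 0.039 and the Hippo and EGF median from -0.15 to 0.30, and the cause was not tested. Of the comparisons of named genes with an alternative, 3259 kept direction and call, 2 gained a call (Cdx2 and Lgr5, upper-quartile scaling) and 10 lost it (Uty, Cd68 and Ywhaz). Without AE replicate 1, 19 of 45 lists kept their counts, 23 moved by 1 or 2 genes and 3 by 3 or more. These were cholesterol synthesis (lower 9 to 12), Hedgehog and BMP (lower 19 to 16) and mesenchyme (lower 20 to 16). Depth limits the genes at 0: the AE libraries hold 12587626 to 34157368 counts, and 3 counts over the group are 0.0605 CPM.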

Other observations

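Several symbol families outside the lists above are described by the same counts. Of 44 tested protocadherin genes, cell-contact genes best known from neurons, 40 fell and 2 rose, at a median log2 change of -4.58. Of 39 collagen genes 29 fell and 5 rose. Of 336 genes named Zfp, for zinc finger proteins, 202 fell and 57 rose. Ribosomal protein genes fell for 28 of 68, near the 43.7% of all genes, and rose for 3, with 37 not called. Solute carrier genes rose for 183 of 308 and fell for 87.

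The X chromosome held 37 of the 272 switched-off genes with a place in RefSeq (13.6%), 1 of the 73 switched-on genes (1.37%) and 544 of 15261 tested genes (3.57%). Of the tested X-linked genes 131 were called higher and 327 lower, at a median log2 change of -0.93, and of the others 5735 and 6336, at -0.13. The AE guts are male and the labels do not state the sex of the embryo pools, so sex and stage cannot be told apart.

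Transcript length moved with the switches: 34, 23, 9, 5 and 0 switched-on genes lay in the 5 length classes of tested genes from shortest to longest, and 31, 47, 47, 60 and 78 switched-off genes. The cause was not tested.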
